A study of Mus musculus with 9 samples.

Results

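The desmosome genes described here are 10 genes of the 17943 in the deposited count table: the desmogleins Dsg1a, Dsg1b, Dsg2 and Dsg3, the desmocollins Dsc1, Dsc2 and Dsc3, and the plaque proteins Dsp, Jup and Pkp1. They were chosen by name, all 10 had a row in the table, and all 10 passed the filter on low counts. RNA-Seq was carried out on skin from 5 control and 4 Supt6-KO mice, with 1 library per mouse. The Supt6-KO animals were K14-CreERT; Supt6 fl/fl mice given tamoxifen, in which the keratin 14 promoter drives an inducible Cre in basal keratinocytes and their descendants. The controls were Supt6 fl/fl mice given corn oil, so Cre and tamoxifen both differ between the groups and their effects cannot be told apart from that of the deletion. Skin was taken on day 10 after the last injection. The sample labels call the tissue ear and the controls WT, whereas the methods of the study name dorsal skin. Supt6 encodes SPT6, a histone chaperone that travels with RNA polymerase II. Whole skin holds many cell types, so in these data fewer keratinocytes, or fewer keratinocytes of 1 layer, cannot be told apart from less RNA per cell. Each library held 29627341 to 30967107 estimated counts, and levels are given as counts per 1000000 counts (CPM) after normalisation by trimmed mean of M-values (TMM).

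Desmosomes are the spot-like junctions that tie the keratin filaments of neighbouring keratinocytes together. Their desmogleins and desmocollins are cadherins that meet between the cells. Plakoglobin (Jup) and plakophilins bind the cadherin tails inside the cell, and desmoplakin (Dsp) joins this plaque to the keratins. The epidermis changes its cadherins as cells move outward: Dsg3, Dsg2, Dsc3 and Dsc2 are best known from the lower layers, and Dsg1 and Dsc1 from the upper ones. Dsg1 and Dsg3 are the targets of the antibodies in the pemphigus diseases.

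The deleted gene was examined first. Supt6 was counted 2786, 2068, 2297, 3370 and 3798 times in the control libraries and 684, 503, 478 and 791 times in the Supt6-KO libraries. Every Supt6-KO library lay below every control library, at a level 2.97-fold lower (log2 fold change -1.57 ± 0.18 SE, adjusted p = 1.3e-05, edgeR). The log2 fold change was -0.74 with the trend of counts with transcript length removed and -2.26 with library totals in place of the TMM factors. No library went against its label in this gene.

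Of the 10 desmosome genes, Dsg1b, Dsc1 and Dsc2 rose in Supt6-KO skin, Dsg2, Dsp, Jup and Pkp1 fell, and Dsg1a, Dsg3 and Dsc3 did not pass the test (edgeR quasi-likelihood test, Benjamini-Hochberg adjusted p under 0.05 over 16428 genes). The change was wide in the whole transcriptome: 34.1% of the genes tested were called higher and 36.8% lower, so 3 of 10 higher and 4 of 10 lower are shares close to the background. All 7 called members changed by at least 2-fold, again 3 of 10 higher and 4 of 10 lower, where the background was 20.9% higher and 24.9% lower. By a test against a 2-fold change 3 were higher and 3 lower (background 13.8% and 16.9%), and with the trend of counts with transcript length removed 3 were higher and 1 was lower by at least 2-fold (background 17.6% and 20.4%). In the same 7 the groups did not overlap. All Supt6-KO mice were above all controls for 3 of 10 members and below them for 4 of 10. Over all genes tested these shares were 28.9% and 31.8%, close to those of the members. The median log2 fold change was -0.33 over the 10 members and -0.07 over all genes tested. Calls over the transcriptome were 48.1% higher with TMM and 23.6% higher when library totals replaced the TMM factors, a choice that moved the median of all genes from -0.07 to -0.76; under that scaling the same number of members, 3, was called higher and 6 were called lower.

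**Figure D1:**
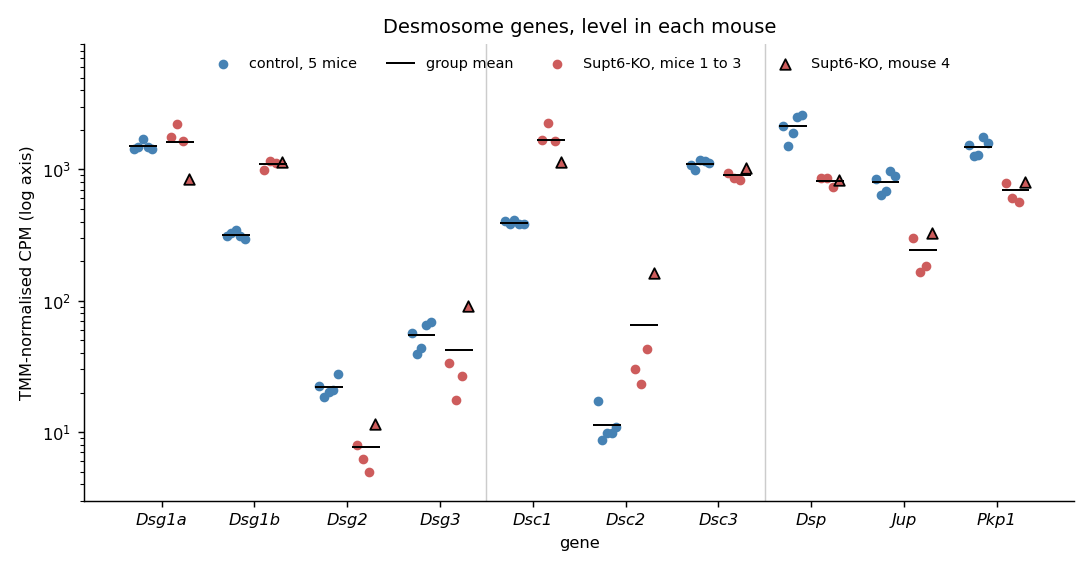
TMM-normalised CPM (log axis) of the 10 desmosome genes, with 1 point per mouse, blue for the 5 control and red for the 4 Supt6-KO mice, and a black line at each group mean. Triangles mark Supt6-KO mouse 4, which had the highest Dsc2 (163 CPM) and the lowest Dsc1 (1143 CPM) of its group. The groups are apart for Dsg1b, Dsg2, Dsc1, Dsc2, Dsp, Jup and Pkp1 and overlap for Dsg1a, Dsg3 and Dsc3.

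Among the desmogleins, Dsg1b was the only one of the 4 to rise. Its level was 308, 330, 344, 312 and 294 CPM in the control mice and 986, 1160, 1117 and 1133 CPM in the Supt6-KO mice. The 4 Supt6-KO values lay close together and far above every control, a 3.46-fold difference (log2 fold change 1.79 ± 0.13 SE, adjusted p = 7.5e-07, edgeR). Dsg1a, the more abundant of the Dsg1 copies in control skin, measured 1434, 1474, 1704, 1482 and 1416 CPM in control mice. In the Supt6-KO mice it measured 1775, 2215, 1655 and 850 CPM, so that 2 mice lay above all controls, 1 within their range and mouse 4 below all of them. Its log2 fold change of 0.11 ± 0.24 SE did not pass the test (adjusted p = 0.69, edgeR).

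Mice carry 3 copies of Dsg1 (Dsg1a, Dsg1b and Dsg1c) in place of the single human gene, and their transcripts share sequence. Of the 100-base windows of their longest annotated coding transcripts, 24.6% in Dsg1a and 32.8% in Dsg1b also occur in another of the copies, and the counts of these copies are not whole numbers in all 9 libraries because reads were divided between them. Shared windows were absent from the other members, and their counts were whole. The split between Dsg1a and Dsg1b therefore depends on that division. Summed over the 3 copies, the level was 1745, 1807, 2050, 1797 and 1712 CPM in control mice and 2763, 3377, 2774 and 1990 CPM in Supt6-KO mice. The sum was higher by 0.56 on the log2 scale (p = 0.0317, two-sided exact permutation test, where 5 against 4 mice can give no p below 0.0159), with mouse 4 inside the control range. Dsg1b made up 17.5% ± 0.55 (SD, n = 5) of the summed level in control mice, and 35.7, 34.4, 40.3 and 56.9% in the Supt6-KO mice.

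Dsg2, the desmoglein found in simple epithelia and in the hair follicle as well as in basal keratinocytes, measured 22.5, 18.4, 20.0, 21.0 and 27.9 CPM in control mice. It measured 8.02, 6.28, 4.94 and 11.6 CPM in Supt6-KO mice, all below the lowest control. The fall was 2.84-fold (log2 fold change -1.51 ± 0.24 SE, adjusted p = 0.00015, edgeR). An antisense gene, Gm16090, overlaps Dsg2, and whether the counting used strand is not given in the sources used here, so their reads may not be separable. The same holds for Dsp, which the annotated gene Gm10129 overlaps on the opposite strand. Gm36938 overlaps Pkp1 on the same strand, so counting by strand would not separate their reads. Dsg3 measured 57.1, 39.2, 43.9, 65.4 and 69.4 CPM in control mice and 33.4, 17.5, 26.9 and 91.0 CPM in Supt6-KO mice. Mice 1 to 3 lay below all controls and mouse 4 above all of them, and the log2 fold change of -0.38 ± 0.40 SE did not pass the test (adjusted p = 0.41, edgeR). Without mouse 4 the log2 fold change of Dsg3 was -1.09 (adjusted p = 0.0016, edgeR).

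With TMM factors and all mice included, the rises of Dsc1 and Dsc2 were larger than the change of any other member. For Dsc2 this rank depended on Supt6-KO mouse 4. Without that mouse the log2 fold change was 1.50 for Dsc2, against 2.24 for Dsc1, 1.77 for Dsg1b, -1.78 for Dsg2 and -1.90 for Jup. Dsc1, the desmocollin of the upper epidermis, measured 402, 381, 411, 383 and 387 CPM in control mice and 1665, 2270, 1646 and 1143 CPM in Supt6-KO mice. The lowest Supt6-KO value was far above the highest control, and the mean difference was 4.28-fold (log2 fold change 2.10 ± 0.19 SE, adjusted p = 2.9e-06, edgeR). Dsc2, the most widely distributed desmocollin across epithelia, was scarce in control skin, at 17.2, 8.65, 9.77, 9.76 and 10.9 CPM. It reached 30.3, 23.2, 42.7 and 163 CPM in Supt6-KO mice, all above the controls, with mouse 4 far above the other 3. The rise was 5.77-fold (log2 fold change 2.53 ± 0.51 SE, adjusted p = 0.00094, edgeR), and without mouse 4 the log2 fold change was 1.50 (adjusted p = 0.00018, edgeR). Dsc3, the most abundant desmocollin of control skin, measured 1086, 995, 1183, 1150 and 1113 CPM in control mice and 933, 864, 827 and 1022 CPM in Supt6-KO mice. Mouse 4 lay in the control range and the other 3 below it. The log2 fold change of -0.28 ± 0.14 SE did not pass the test (adjusted p = 0.088, edgeR), and it passed without mouse 4 (-0.34, adjusted p = 0.025, edgeR).

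The desmosomal cadherin genes lie side by side in 1 cluster of 644 kb on mouse chromosome 18 (GRCm38, chr18:19960930-20604521), with 9 cadherin genes and 0 other protein-coding genes between its ends. Starting from the low-coordinate end the order is Dsc3, Dsc2, Dsc1, Dsg1c, Dsg1a, Dsg1b, Dsg4, Dsg3 and Dsg2, with the desmocollins on the minus strand and the desmogleins on the plus strand. Along the cluster, Dsc2 and Dsc1 rose while Dsc3 next to them did not pass the test. Dsg1b rose between Dsg1a, which did not pass, and Dsg4, which fell. The 2 genes at the far desmoglein end were Dsg3, which did not pass, and Dsg2, which fell.

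Levels of different genes were compared per kilobase of transcript, using the length that the deposited counts and TPM imply. In control skin the order of mean levels in CPM per kb was Pkp1 (293), Dsg1a (242), Dsp (197), Dsc3 (189), Jup (147), Dsc1 (72.0), Dsg1b (48.3), Dsg3 (12.3), Dsg2 (3.45) and Dsc2 (2.24). Each of the first 4 overlapped with the gene next below it over the 5 mice, as did Dsg2 with Dsc2, and the other neighbours were apart. In Supt6-KO skin the order was Dsc1 (308), Dsg1a (262), Dsg1b (167), Dsc3 (156), Pkp1 (136), Dsp (75.9), Jup (44.7), Dsc2 (12.9), Dsg3 (9.46) and Dsg2 (1.21). There Pkp1 and Dsp, Dsp and Jup, and Dsg3 and Dsg2 were the neighbours that did not overlap. Dsc1 thus stood 6th in control and 1st in Supt6-KO skin, and Pkp1 1st and 5th, though over the mice the first 5 genes of the Supt6-KO order overlapped one with the next. The order depends on the lengths: those of GENCODE differ from the implied ones for some members (3205 against 5478 bases for Jup, 3965 against 6586 for Dsg1b and 6212 against 4460 for Dsg3), and with them, a choice added after seeing the data, Jup (250.4) stood above Dsp (222) and Dsc3 (207) in control skin.

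The makeup of each cadherin family was taken as shares of its summed CPM per kb. Dsg1a made up 78.7% ± 1.15 (SD, n = 5) of desmoglein RNA in control mice and 64.3, 66.3, 60.1 and 41.2% in the Supt6-KO mice. Dsg1b made up 15.7% ± 0.59 (SD, n = 5) in control mice and 33.7, 32.7, 38.2 and 51.7% in the Supt6-KO mice. The Dsg1b share of every Supt6-KO mouse lay above every control, and in mouse 4 Dsg1b exceeded Dsg1a. Dsc3 made up 71.8% ± 1.19 (SD, n = 5) of desmocollin RNA in control mice and 33.9, 26.0, 31.3 and 41.9% in the Supt6-KO mice. The share of Dsc1 was 27.4% ± 1.09 (SD, n = 5) in control mice against 64.8, 73.2, 66.8 and 50.3%, so Dsc1 exceeded Dsc3 in every Supt6-KO mouse and in no control. Dsc2 reached 7.80% of desmocollin RNA in mouse 4 and 0.81 to 1.88% in the other 3 Supt6-KO mice, against 0.70 to 1.3% in control mice. With GENCODE lengths the Dsg1b share was 21.8 to 23.6% in control and 42.6 to 63.0% in Supt6-KO mice, and the Dsc1 share 30.1 to 33.1% and 55.2 to 76.9%.

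Ratios of 2 members within 1 library, which do not depend on the library's size factor but can depend on transcript length, were compared for 7 pairs. Dsc1 over Dsc3 was 0.37, 0.38, 0.35, 0.33 and 0.35 in counts in control mice and 1.79, 2.63, 1.99 and 1.12 in Supt6-KO mice. The log2 ratio was higher by 2.34 in Supt6-KO mice, with no overlap (exact permutation p = 0.0159, the smallest that 5 against 4 mice can give, adjusted over the 7 pairs 0.0278). Dsc2 over Dsc3 rose by 2.39, Dsg1b over Dsg3 by 2.42, and Dsg1a over Dsg1b fell by 1.76 on the log2 scale, each without overlap and with the same p and adjusted p by the exact permutation test. Dsg2 over Dsg3 differed by -0.93 with overlapping groups (exact permutation p = 0.0317, adjusted 0.0444). With 1 mouse left out in turn, the adjusted p of these 5 pairs was 0.04 to 0.1 by the exact permutation test, and it was under 0.05 for all 5 without control mouse 4 and for none of them otherwise. The pairs without overlap stayed at the smallest p the test can give. Their adjusted p was thus set by the number of mice that remain and by the rank of Dsg2 over Dsg3 among the 7 pairs. Dsg2 over Dsg3 was at an adjusted p of 0.04 without control mouse 4 and 0.08 without control mouse 1, 2, 3 or 5 (exact permutation test). The log2 difference of Dsc1 over Dsc3 ran from 2.15 to 2.56 with 1 mouse left out. Within the plaque, neither pair passed: Pkp1 over Dsp differed by 0.24 (exact permutation p = 0.127, adjusted 0.143) and Jup over Dsp by -0.41 (exact permutation p = 0.143, adjusted 0.143), both with overlapping groups. Both plaque ratios depend on transcript length, since with the length trend removed the log2 fold changes were -0.22 for Dsp, -0.53 for Pkp1 and -1.08 for Jup.

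All 3 plaque genes fell. Dsp, which encodes desmoplakin, lies at chr13:38151294-38198577 on the plus strand, Jup, which encodes plakoglobin, at chr11:100368958-100397763 on the minus strand, and Pkp1, which encodes the main plakophilin of the upper epidermis, at chr1:135871395-135919207 on the minus strand (GRCm38, GENCODE vM21). The 3 genes lie on different chromosomes. With the length trend removed, Dsp was at -0.22 and was not called (adjusted p = 0.099, edgeR). The 250 bases before the RefSeq start (GRCm38.p6) are printed for Dsp and Jup, the 2 members with such a sequence available. They lie at chr13:38151044-38151293 (plus strand) for Dsp and chr11:100397791-100398040 (minus strand) for Jup, and run 5′ to 3′ on the gene's strand. Capitals mark a GC box of the KLF and SP factors (GGGGCGGGG, here on the opposite strand).
Dsp: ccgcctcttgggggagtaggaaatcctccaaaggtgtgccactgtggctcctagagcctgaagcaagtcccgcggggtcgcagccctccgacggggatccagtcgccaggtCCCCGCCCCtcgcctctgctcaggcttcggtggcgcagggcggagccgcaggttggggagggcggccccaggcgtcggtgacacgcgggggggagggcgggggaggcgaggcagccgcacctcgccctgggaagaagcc
Jup: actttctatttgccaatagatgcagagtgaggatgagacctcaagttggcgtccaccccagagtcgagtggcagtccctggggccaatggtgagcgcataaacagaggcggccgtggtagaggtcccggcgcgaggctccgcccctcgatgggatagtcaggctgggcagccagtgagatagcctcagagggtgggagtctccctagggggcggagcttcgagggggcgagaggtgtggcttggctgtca
Both stretches are rich in G and C, 72.4% in Dsp and 62% in Jup, against a median of 52.4% over 32851 promoters of the same length. Of 6 motifs searched on both strands, only the GC box occurred, 1 time, with its first base at position -139 of Dsp, counted back from the RefSeq start. It was found in 10.4% of all promoters. The other 5 were TATAAA (12.4% of promoters), the GRHL motif AACCNGTT (1.79%), the AP-1 motif TGANTCA (6.75%), the E-box CACGTG (6.02%) and the C/EBP motif TTGCNNAA (9.56%). A match is a run of letters and not a measured site.

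Dsp, the most abundant member by counts in control skin, measured 2151, 1513, 1897, 2492 and 2610 CPM in control mice. In Supt6-KO mice it measured 855, 865, 734 and 836 CPM, values that lay close together and below every control. The fall was 2.59-fold (log2 fold change -1.37 ± 0.19 SE, adjusted p = 5.9e-05, edgeR). Dsp has the longest transcript of the members, an implied 10836 bases against 4460 to 6586 for the others. When the trend of the counts with transcript length was removed from each library, the log2 fold change of Dsp was -0.22 and no longer passed (adjusted p = 0.099, edgeR).

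Jup, the only one of these plaque proteins shared with adherens junctions, measured 842, 643, 681, 964 and 883 CPM in control mice and 301, 166, 182 and 329 CPM in Supt6-KO mice. Every Supt6-KO value was below every control, and the fall was 3.28-fold, the largest among the 4 members that fell (log2 fold change -1.71 ± 0.24 SE, adjusted p = 6e-05, edgeR). Pkp1 measured 1538, 1253, 1275, 1773 and 1598 CPM in control mice and 784, 610, 563 and 807 CPM in Supt6-KO mice. The groups did not overlap, and the fall was 2.15-fold (log2 fold change -1.11 ± 0.18 SE, adjusted p = 2e-04, edgeR). With the length trend removed Jup was at -1.08 and Pkp1 at -0.53, both still called.

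The summed level of the 3 plaque genes was 655, 503.6, 550, 755 and 717 CPM per kb in control mice and 288, 230, 212 and 296 CPM per kb in Supt6-KO mice. That of the 9 cadherins was 560, 542, 621, 574 and 557 CPM per kb in control mice and 916, 1107, 895 and 750 CPM per kb in Supt6-KO mice. Cadherin RNA per RNA of these 3 plaque genes was thus 0.86, 1.08, 1.13, 0.76 and 0.78 in control mice. In Supt6-KO mice it was 3.18, 4.81, 4.23 and 2.53, with no overlap between the groups. The plaque sum leaves out Pkp3, which did not pass the test (293 and 288 CPM). With the length trend removed, the log2 fold changes of the plaque genes were smaller, -0.22 for Dsp, -1.08 for Jup and -0.53 for Pkp1. These sums were formed after the values of the members were seen and were not tested.

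Because the TMM factors were 1.20 to 1.32 in control and 0.67 to 0.91 in Supt6-KO libraries, the members were also examined under other scalings. Dsg1b, Dsc1 and Dsc2 were called higher, and Dsg2, Jup and Pkp1 lower, with library totals, upper-quartile factors and removal of the length trend. Cdh1, which encodes E-cadherin, the cadherin of adherens junctions, itself fell by 0.63 on the log2 scale (edgeR), so values relative to it lie above those with TMM factors for every member. Relative to Cdh1, Dsg1b was higher by 2.44, Dsc1 by 2.71 and Dsc2 by 2.76 on the log2 scale. By the same measure Dsg2 was at -0.92, Dsp at -0.70 and Jup at -1.11 (these 6 without overlap, exact permutation p = 0.0159 each), and Pkp1 at -0.46 with overlapping groups (exact permutation p = 0.0317). Dsc3 turned with the scaling: it was at -0.96 with library totals (adjusted p = 0.00034, edgeR), at 0.41 with the length trend removed (adjusted p = 0.0053, edgeR) and at 0.37 relative to Cdh1, a scaling that the fall of Cdh1 raises. Dsg1a was at -0.63 with library totals (adjusted p = 0.01, edgeR) and at 0.86 with the length trend removed (adjusted p = 0.01, edgeR). Dsg3 was called under none of these scalings.

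**Figure D2:**
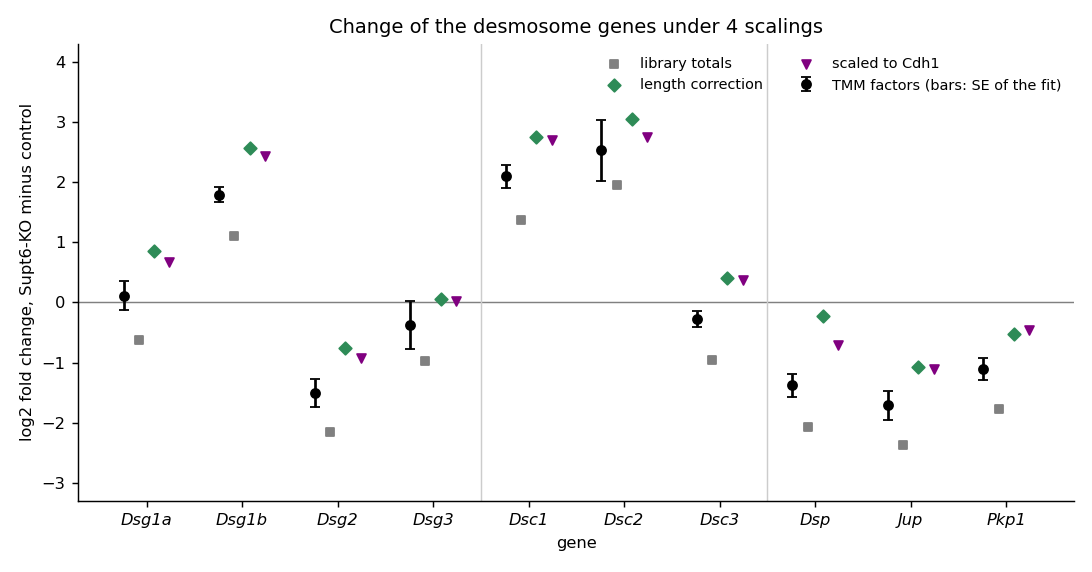
Log2 fold change (Supt6-KO minus control) of each member with TMM factors (black, bars the SE of the edgeR fit), library totals (grey), the length trend removed (green) and relative to Cdh1 in the same library (purple). Dsg1b, Dsc1 and Dsc2 are above 0 and Dsg2, Dsp, Jup and Pkp1 below 0 under all 4, and Dsc3 runs from -0.96 to 0.41.

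Of 10 other desmosome genes, all tested, 1 rose, 5 fell and 4 did not pass, with a median log2 fold change of -0.68, beside 34.1% higher and 36.8% lower over all genes tested. The one that rose was Perp, a membrane protein of desmosomes that is induced by p53 and p63, from 4445 ± 929 (SD, n = 5) to 13047 ± 3045 (SD, n = 4) CPM (log2 fold change 1.55 ± 0.24 SE, adjusted p = 0.00015, edgeR). Evpl, which encodes the plakin envoplakin, fell from 164 ± 39.2 (SD, n = 5) to 49.0 ± 4.02 (SD, n = 4) CPM (log2 fold change -1.74 ± 0.18 SE, adjusted p = 7.4e-06, edgeR), and its partner periplakin (Ppl) fell by 0.97 on the log2 scale. Dsg4, the desmoglein of the hair shaft, had 352, 23, 133, 63 and 8 counts in control mice and 0, 0, 0 and 3 in Supt6-KO mice. Its mean CPM in Supt6-KO mice was 0.862% of that in control mice (95% Poisson interval of the 3 counts 0.178 to 2.52%, counting error only), and 1.73% without control mouse 1, the highest of the controls. Pkp3, a plakophilin of all epidermal layers, measured 293 ± 29.8 (SD, n = 5) and 288 ± 64.6 (SD, n = 4) CPM, and Cdsn, which encodes corneodesmosin of the outermost junctions, 549 ± 38.3 (SD, n = 5) and 588 ± 145 (SD, n = 4) CPM. Neither passed the test, nor did Dsg1c and Pkp2.

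Of 11 adherens junction genes, all tested, 9 fell and 0 rose, with a median log2 fold change of -1.0, beside the same 34.1% and 36.8% over all genes. At an unadjusted p under 0.05 the count of higher genes was also 0, and by DESeq2 it was 0. Nectin1, a cell adhesion receptor, fell from 88.7 ± 21.8 (SD, n = 5) to 22.8 ± 8.57 (SD, n = 4) CPM (log2 fold change -1.96 ± 0.26 SE, adjusted p = 4.4e-05, edgeR). Ctnna1, which encodes alpha-catenin, the link to actin, fell from 235 ± 33.4 (SD, n = 5) to 86.8 ± 16.1 (SD, n = 4) CPM (log2 fold change -1.43 ± 0.16 SE, adjusted p = 1.3e-05, edgeR). Ctnnd1 (p120-catenin) fell by 1.3 and Afdn (afadin) by 1.21 on the log2 scale. Cdh1 fell by less, 0.63 on the log2 scale with overlapping groups (adjusted p = 0.0035, edgeR), and Nectin2 was at 0.00 and did not pass. With the length trend removed, 6 of the 11 were called lower.

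Several of the keratins that desmosomes anchor changed by more than any of the 10 members. Of 11 keratins, 5 rose, 4 fell and 2 did not pass (median log2 fold change 0.66), a mix near the 34.1% higher and 36.8% lower over all genes. Krt6b measured 12.3, 12.7, 8.42, 2.87 and 4.02 CPM in control mice and 1294, 649, 1247 and 6182 CPM in Supt6-KO mice, and Krt16, like it a keratin of wounded and hyperproliferative epidermis, 43.4, 31.5, 19.6, 16.4 and 9.19 CPM against 2519, 1443, 2467 and 7999 CPM. Supt6-KO mouse 4 was highest in both. Krt2, a keratin of the late spinous and granular layers, fell from 10603 ± 1469 (SD, n = 5) to 130 ± 126.3 (SD, n = 4) CPM (adjusted p = 3e-05, edgeR), and Krt77 from 763 ± 315 (SD, n = 5) to 15.2 ± 11.7 (SD, n = 4) CPM (adjusted p = 1.8e-05, edgeR).

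Among 12 regulators and proteases of desmosomes, 5 rose, 5 fell and 2 did not pass (median log2 fold change -0.12), also near the 34.1% and 36.8% over all genes. The kallikreins that cleave desmosomal proteins in the outermost layers rose together. Klk7 measured 451, 534, 542, 410 and 311 CPM in control mice and 2369, 2591, 2381 and 1576 CPM in Supt6-KO mice (log2 fold change 2.31 ± 0.21 SE, adjusted p = 3.5e-06, edgeR). Klk5 rose by 1.73 on the log2 scale (adjusted p = 4.8e-05, edgeR). Klk14 had 6, 0, 4, 3 and 4 counts in control mice and 56, 113, 523 and 739 in Supt6-KO mice (adjusted p = 1.5e-05, edgeR). Prkca, the kinase PKC alpha that loosens desmosomes, fell from 19.5 ± 4.82 (SD, n = 5) to 5.48 ± 1.94 (SD, n = 4) CPM (log2 fold change -1.82 ± 0.25 SE, adjusted p = 6.3e-05, edgeR). Trp63, the regulator of the basal keratinocyte programme, fell by 1.21 on the log2 scale (adjusted p = 1.5e-05, edgeR).

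Markers of the keratinocyte layers moved beside these results. The 6 basal markers, of which Krt14 was most abundant, summed to 11169, 11671, 11196, 12768 and 11455 CPM in control mice and 8196, 5582, 6814 and 13901 CPM in Supt6-KO mice, and 5 of the 6 fell. The 6 suprabasal markers, led by Krt10, summed to 33455, 32431, 33231, 37156 and 34160 CPM in control mice and 48086, 46240, 45146 and 23486 CPM in Supt6-KO mice, with 3 called higher and 1 lower. Supt6-KO mice 1 to 3 were below all controls in the basal sum and above all controls in the suprabasal sum, whereas mouse 4 was the reverse in both sums. Its high basal sum rested on Krt14 (9613 CPM, against 2972 to 3810 CPM in control mice). The other 5 basal markers were below every control in all Supt6-KO mice, mouse 4 included. Its Krt10 was at 7774 CPM, against 18223 to 19843 CPM in Supt6-KO mice 1 to 3. Krt1 (7263 CPM) and Krtdap (2768 CPM) of mouse 4 were above every control. The sums thus do not describe all markers of a layer. Among the members, mouse 4 was the lowest of its group for Dsg1a and Dsc1 and the highest for Dsg2, Dsg3, Dsc2, Dsc3, Jup and Pkp1. Without mouse 4, 3 members were called higher and 6 lower. The part of the keratinocyte layers in the members' changes was not tested.

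Markers of other skin cells also differed. The 7 hair follicle markers, led by Krt71, summed to 1469, 135, 506, 301 and 13.2 CPM in control mice and 4.60 to 5.52 CPM in Supt6-KO mice, and all 7 fell. The sums of the sebocyte (5 markers, Scd1 the most abundant), fibroblast (6, Col3a1), endothelial (5, Pecam1), skeletal muscle (5, Acta1) and cartilage lists (4, Acan) were lower in Supt6-KO skin. They went from 6573 to 1406, from 5670 to 2771, from 80.5 to 37.7, from 3664 to 948 and from 257 to 20.6 CPM, with 3, 4, 4, 4 and 3 markers called lower. The 4 adipocyte markers, led by Fabp4, summed to 303 and 316 CPM, with 3 called lower. The neutrophil (5, Mmp9), macrophage (5, Cd14) and melanocyte sums (4, Dct) went from 19.3 to 60.1, from 86.1 to 158 and from 50.4 to 125 CPM, with 5, 4 and 4 markers called higher, and 1 macrophage marker lower. Sebocyte markers included 1 called higher. The neutrophil marker Ly6g was near 0 in both groups (0.01 and 0.22 CPM), as was the cartilage marker Matn1 (0.01 and 0 CPM), which had too few counts to be tested. The part of these cells in the members' changes was not tested.

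Within the groups, the members also varied together to different degrees, described here by the Pearson correlation of their log2 CPM after the group means were removed, over 9 mice. Jup and Pkp1 were most alike of the plaque genes (r = 0.94). Dsg1a and Dsc1 varied together (r = 0.95), opposite to Dsg3 (r = -0.93 and -0.90) and Dsc2 (r = -0.94 and -0.86), a pattern in which Supt6-KO mouse 4 weighs heavily. Dsg1b was close to none of the cadherins (r from -0.35 to 0.10). Among 9538 genes of at least 10 CPM outside the members, those most like Dsp were Kif1b (r = 0.993), Synrg (r = 0.991) and Tacc2 (r = 0.985), and those most like Dsg1b were Arl2 (r = 0.962), Rfc4 (r = 0.961) and Cdk10 (r = 0.953), each over 9 mice that share their normalisation.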

How the data were processed

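RNA was made into mRNA libraries with a BGI kit and sequenced as paired reads on a DNBSEQ platform. The authors aligned reads to mm10 with Bowtie2 2.3.4.3 and deposited the estimated counts per gene that RSEM 1.3.1 gave, which divide reads shared by paralogs between them. HISAT and DESeq2 1.4.5 are also named in the submitters' processing notes. The authors deposited TPM values for 6 of the samples, used here only for the transcript lengths they imply (scaled to GENCODE lengths over 6230 genes). The gene annotation is not given in the sources used here.

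Counts, of which 9% were not whole, were rounded. Genes with a sum under 10 were left out, leaving 16428 of 17943. Groups were compared with edgeR 4.0.16 (R 4.3.3, quasi-likelihood test, TMM factors, no covariates, Benjamini-Hochberg adjustment over all genes). DESeq2 1.42.0, other scalings and filters, a replicate block and leaving out each mouse were alternatives. On simulated data with 200 changed genes of 16322, raised and lowered in equal number, edgeR recovered 95% at a log2 change of 2. Recovery in data where 34.1% of genes are called higher and 36.8% lower was not examined. Replicates are separate mice by their titles. Ratios used counts plus 0.5 and exact permutation tests over every division of the mice into groups of the same sizes. The code written for these tests was checked against scipy 1.17.1 on an example. A count of 3 was taken as the floor of detection. Gene identifiers were matched to GRCm38 annotation for 17850 genes, and 93 were not matched.

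The members, the lists and the tests were chosen with earlier results of these data known. Named were all 10 members, Supt6, the 2 to 4 genes of each other list with the largest absolute change, and the 3 genes most like Dsp and Dsg1b. The others named (Trp63, Pkp3, Cdsn, Dsg1c, Pkp2, Cdh1 and Nectin2) were picked after their values were seen, apart from the cell type markers. Of the markers the text names the most abundant of each list, those near 0, and Krt1, Krt2, Krt5 and Krtdap. Krt1 and Krtdap were also picked after their values were seen.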

Additional observations from a re-analysis of the deposited data

Results flagged for a closer look

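In 64 sets of 4 or 5 mice examined, a single mouse stood apart from the rest of its group by Dixon's criterion in 6, where chance gives about 1 in 20 sets, or 3.2. Control mouse 3 was high for Dsg1a at 1704 CPM, against a group median of 1474 CPM. Control mouse 1 was high for Dsc2 at 17.2 CPM, against a median of 9.77 CPM, and for the log2 ratio of Dsc2 to Dsc3 at -5.98, against -6.84. Supt6-KO mouse 4 was high for Dsc2 at 163 CPM, against a median of 36.5 CPM, and low for the summed suprabasal keratinocyte markers at 23486 CPM, against 45693 CPM. Supt6-KO mouse 3 was high for the summed neutrophil markers at 101 CPM, against 49.6 CPM. The causes were not tested.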

How the results depend on the processing

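With DESeq2, no filter, a filter at a mean of 1 CPM, and without the 50 most abundant genes, the calls and directions of the 10 members were those given above. Dsg1a turned to -0.63 with library totals and -0.09 without Supt6-KO mouse 2, and was called at 0.86 with the length trend removed. Dsg3 turned to 0.06 with the length trend removed and 0.02 relative to Cdh1, and Dsc3 to 0.41 and 0.37. The Cdh1 scaling lies above the TMM values for all members, as Cdh1 itself fell. Dsc3 was called lower at -0.96 with library totals and -0.36 with upper-quartile factors. Dsp was not called at -0.22 with the length trend removed. That setting called 5 members higher, and 1 lower by 2-fold. The Cdh1 scaling was chosen after seeing the data. Of the other desmosome genes, 0 were higher without the 50 most abundant genes, since Perp is one of them, 8 were lower with library totals and 3 with the length trend removed. Of the keratins, 2 were lower without the 50 most abundant genes, which include Krt2 and Krt5, and of the regulators and proteases 3 were higher with library totals. The causes of the other shifts were not tested.

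Leaving out each mouse in turn gave log2 fold changes of -0.09 to 0.32 for Dsg1a, 1.75 to 1.84 for Dsg1b, -1.78 to -1.35 for Dsg2, -1.09 to -0.14 for Dsg3, 1.90 to 2.24 for Dsc1, 1.50 to 2.79 for Dsc2, -0.34 to -0.24 for Dsc3, -1.47 to -1.29 for Dsp, -1.90 to -1.58 for Jup and -1.19 to -1.03 for Pkp1, with 3 members called higher and 4 to 6 lower. The ratio differences ran from 2.07 to 2.87 for Dsg1b/Dsg3, -1.19 to -0.69 for Dsg2/Dsg3, 2.15 to 2.56 for Dsc1/Dsc3, 1.84 to 2.70 for Dsc2/Dsc3 and -1.91 to -1.46 for Dsg1a/Dsg1b. Without a Supt6-KO mouse, when only 5 can be set against 3, none passed (adjusted p 0.05 to 0.1 for these pairs by the exact permutation test). Without control mouse 1, 2, 3 or 5, Dsg2/Dsg3 was at an adjusted p of 0.08 and the other 4 of these pairs were at 0.05, which is not under the threshold, and all 5 passed, at 0.04, without control mouse 4 (exact permutation test). Differences of medians were 2.70, -0.93, 2.44, 2.23 and -1.54 for these pairs, with an adjusted p of 0.067 each by the exact permutation test.

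Mice with the same replicate number correlated at 0.013 to 0.26 in their deviations from the group means, so the numbers were not taken to pair them. With the replicate number as a block, 3 members were called higher and 4 lower, with Dsg1b at 1.76, Dsc2 at 2.07 and Dsp at -1.27, and no call among the members changed. Library totals were even, but the TMM factors were 1.20 to 1.32 in control and 0.67 to 0.91 in Supt6-KO libraries. Low counts limit genes such as Dsg4 and Klk14.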
